A study of Homo sapiens with 4 samples.

Results

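IRF3 occupied 3603 regions that lay in gene deserts, out of 32246 regions with an IRF3 peak in both replicates, a share of 11.2% (exact binomial 95% interval 10.8% to 11.5%). A region was placed in a gene desert when its summit, the point of highest signal in the stronger of its peaks, lay outside every protein-coding gene of RefSeq, over 100 kb from the nearest end of one, and over 1 kb from each end of every long non-coding RNA (lncRNA) gene. Peaks of the 2 replicates were joined when they overlapped by at least 1 bp on the GRCh38 build. The regions were thus chosen by their location and by a called peak, itself set by fold enrichment and pileup, in both libraries, and neither is a finding.

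The cells were MM1.S, an established human multiple myeloma line, untreated and fixed with formaldehyde. There was 1 group with 2 IRF3 ChIP-seq libraries and 2 input libraries, and no second condition, stimulus or genotype. The labels do not state whether the replicates were separate cultures, and their spread may therefore be technical. MM1.S is known to carry a translocation that joins the immunoglobulin heavy chain locus to the region of MAF, and distances on the reference genome do not follow such a junction.

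IRF3 is a transcription factor of the interferon regulatory family, which resides mainly in the cytoplasm of unstimulated cells and activates interferon genes after phosphorylation downstream of nucleic acid sensors. Its family binds repeats of a GAAA core, known as the interferon-stimulated response element (ISRE). Gene deserts hold few coding genes but many distal enhancers, which can act on promoters over long distances and often lie near regulators of development and cell identity.

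MicroRNA hairpins lay inside 4 of the desert regions. The mature microRNAs of 3 of them (RefSeq, GRCh38.p14) are printed, chosen after their values were seen because their regions recur in the results. The other region, chr7:32732615-32733281 over MIR550A2 and MIR550B2, had lower values, a fold enrichment over input of 2.80 in replicate 1 and 3.16 in replicate 2. Capitals mark the seed, bases 2 to 8, which pairs with target messages.
hsa-miR-148a-3p: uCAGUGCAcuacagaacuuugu
hsa-miR-4507: cUGGGUUGggcugggcuggg
hsa-miR-4538: gAGCUUGGaugagcugggcuga
hsa-miR-4537: uGAGCCGAgcugagcuuagcug
hsa-miR-4437: uGGGCUCAggguacaaagguu
The seed CAGUGCA of miR-148a-3p was shared by 3 mature microRNAs of the table, with miR-148b-3p and miR-152-3p. The seeds of miR-4507 and miR-4538 were each found in 2 mature microRNAs, and those of miR-4537 and miR-4437 in 1 each. The hairpin of miR-148a lies at chr7:25949919-25949986, that of miR-4437 at chr2:181305593-181305652, and the other 3 in the heavy chain locus between chr14:105858124-105858175 and chr14:105859484-105859553, all on the minus strand.

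Promoter sequence, taken as 250 bases before to 50 after an annotated start, was overlapped in 15 windows of 13 lncRNA genes by 13 of the desert regions, and 12 windows lay wholly inside a region. The 3 shown were picked after their values were seen, the first because it alone held an ISRE match near a summit, the second because its summit lay in the window at a high fold enrichment, and the third because its region was the strongest of those over a promoter. Capitals mark matches to the ISRE (GAAA, any 2 bases, GAAA) and to AP-1 (TGANTCA) in the first, to TGANTCA in the second and to CACGTG (an E-box) in the third, each searched on both strands.
LOC105379013: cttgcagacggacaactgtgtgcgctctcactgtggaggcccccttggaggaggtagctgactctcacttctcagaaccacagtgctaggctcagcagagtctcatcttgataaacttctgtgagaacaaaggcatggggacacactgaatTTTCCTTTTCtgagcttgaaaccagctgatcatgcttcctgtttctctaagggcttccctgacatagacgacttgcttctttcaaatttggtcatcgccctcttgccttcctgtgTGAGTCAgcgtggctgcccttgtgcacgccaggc
LOC107985242: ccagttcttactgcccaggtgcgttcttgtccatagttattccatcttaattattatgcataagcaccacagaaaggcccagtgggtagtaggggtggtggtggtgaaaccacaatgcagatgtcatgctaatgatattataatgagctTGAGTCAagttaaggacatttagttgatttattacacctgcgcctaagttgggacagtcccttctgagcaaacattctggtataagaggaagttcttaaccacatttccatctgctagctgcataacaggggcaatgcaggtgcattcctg
DLEU2: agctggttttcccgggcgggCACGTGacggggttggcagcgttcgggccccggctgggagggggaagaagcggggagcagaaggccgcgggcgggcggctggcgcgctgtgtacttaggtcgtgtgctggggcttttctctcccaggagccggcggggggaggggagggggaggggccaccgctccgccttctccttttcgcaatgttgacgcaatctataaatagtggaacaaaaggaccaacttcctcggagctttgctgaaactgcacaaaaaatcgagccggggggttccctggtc
The window of LOC105379013 is chr5:68434380-68434679 on the minus strand. Its ISRE match, read on the opposite strand, spans bases 152 to 161 and stood 30 bp from the summit, and its AP-1 match spans bases 267 to 273 and stood 83 bp from it. The region over it (chr5:68434142-68434781) had a fold enrichment of 4.87 in replicate 1 and 5.08 in replicate 2, where fold enrichment is the authors' own value for a peak, ChIP pileup over local input background at the summit. The window of LOC107985242 is chr1:194289658-194289957 on the minus strand, its AP-1 match stood 136 bp from the summit, and its region read 7.85 and 7.89. The window of DLEU2, an lncRNA gene that hosts a microRNA cluster often deleted in chronic lymphocytic leukaemia, is chr13:50125492-50125791 on the minus strand, with a GC content of 64.0%. Its E-box match stood 1472 bp from the summit, and the region read 11.1 and 14.9.

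An ISRE match occurred in 2 of the 15 windows against 3.57% of all 35116 RefSeq promoter windows of the same length, and an AP-1 match in 5 of 15 against 7.71%. The E-box occurred in 2 of 15 against 7.26%, and neither a composite of ETS and IRF half-sites (GGAA, any 2 bases, GAAA) nor CCGGAAGT, an ETS site, occurred in any (2.82% and 4.14% of all windows). The ISRE and composite searches can match at overlapping bases. The 15 windows are too few to separate these shares, 3 of them belong to 1 gene, and most desert regions cover no promoter, so their own sequence was not analysed here.

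Peak calling used 38568845 and 46474586 ChIP tags in replicates 1 and 2, against 58025919 and 60348415 input tags. Among the desert regions the median fold enrichment was 4.01 in replicate 1 (quartiles 3.18 and 5.29, range 1.61 to 30.9) and 4.09 in replicate 2 (quartiles 3.27 and 5.44, range 1.64 to 57.9). Most of them were weak to moderate in both libraries, with a tail of 33 regions at 10 or more in each. That tail was 0.92% of desert regions, against 3.81% of all shared regions, 2.03% at 10 to 100 kb and 1.58% in gene bodies. The other 28643 shared regions had medians of 4.32 and 5.09, and regions within 1 kb of a coding gene end 5.34 and 8.04. The medians were 4.03 and 4.35 at 10 to 100 kb from a gene, 4.01 and 4.30 inside gene bodies, 3.82 and 4.30 at 1 to 10 kb, and 4.49 and 5.08 at the ends of lncRNA genes far from coding genes. Each of these 4 classes was above the deserts in replicate 2, while in replicate 1 the classes lay on both sides of them.

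**Figure D1:**
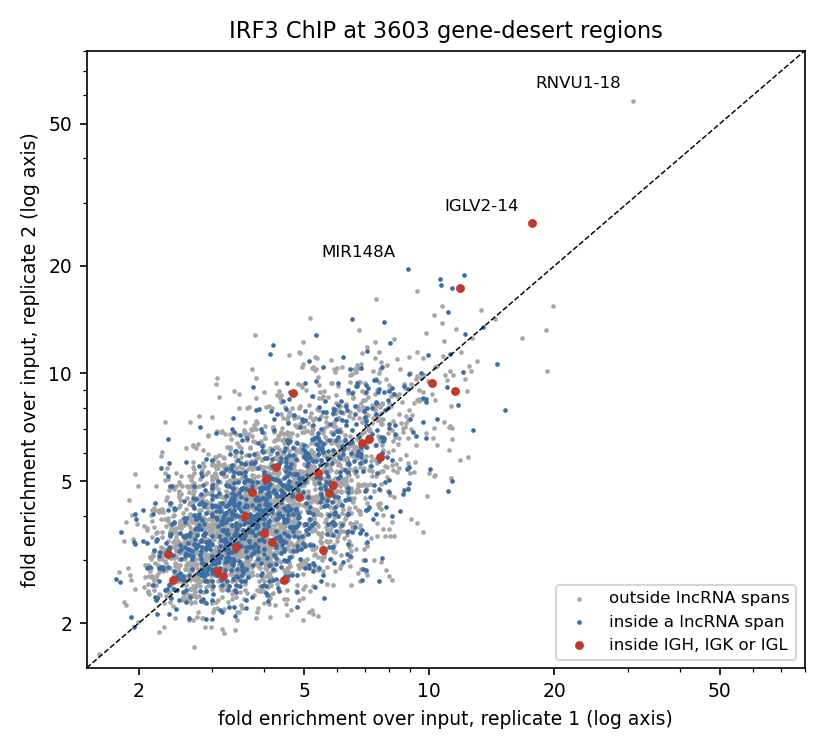
Fold enrichment over input at each of the 3603 gene-desert regions in replicate 1 (x, log axis) and replicate 2 (y, log axis), with regions inside lncRNA spans in blue and inside immunoglobulin loci in red. The dashed line marks equal values, most points lie between 2 and 10 on both axes, and the region at RNVU1-18 stands alone at 30.9 and 57.9.

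A fold enrichment of at least 5 in both replicates was reached by 667 desert regions, 18.5% (17.3% to 19.8%), where 30% of all shared regions reached it. The share was 21.9% at 10 to 100 kb, 21.2% in gene bodies and 53.2% at gene ends. Among the strongest 20% of shared regions, ranked by the worse of a region's ranks in the 2 replicates, 294 were desert regions. That was 8.16% of desert regions (7.29% to 9.10%), against the 20% that the definition sets. Ranked in the list of replicate 1 alone, over its 5211 desert regions shared or not, the share was 13.3%. In that of replicate 2 alone, over 4753 such regions, it was 7.09%. The size thus differed between the lists, while both shares lie under 20%. Neither compares directly with the 8.16%, since the set of regions changed along with the library. By the worse of the ranks the share was also low in other classes away from gene ends. It was 11.6% at 10 to 100 kb, 11.7% in gene bodies and 11.8% at 1 to 10 kb, while gene ends had 42.3%. Desert regions made up 4.56% of the strongest 20% of shared regions, 10.3% of the next 20% and 13.0% to 14.4% of the others in steps of that size.

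The shift between replicates was smaller in the deserts than elsewhere. Fold enrichment was higher in replicate 2 at 1957 desert regions, 54.3%, where 68.2% of all shared regions were higher in it. The median log2 ratio of replicate 2 to replicate 1 was 0.05 (quartiles -0.25 and 0.36), against 0.12 at 10 to 100 kb, 0.13 in gene bodies and 0.60 at gene ends, where 88.8% were higher in replicate 2. With 1 pair of libraries this difference between locations has no replicate check.

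The local input background moved with that difference. It was derived from the deposited values as the pileup plus 1, divided by fold enrichment, minus 1, in fragments scaled to the ChIP depth. Desert regions had a median background of 14.6 in replicate 1 and 10.0 in replicate 2, and gene-end regions 19.3 and 10.2. The gene-end background was thus 1.32 times the desert one in replicate 1 and 1.02 times in replicate 2. Median pileup at the desert summits was 59 and 42 stacked fragments, against 102 and 89 at gene ends. The part of the input in the gap between replicates was not tested.

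**Figure D2:**
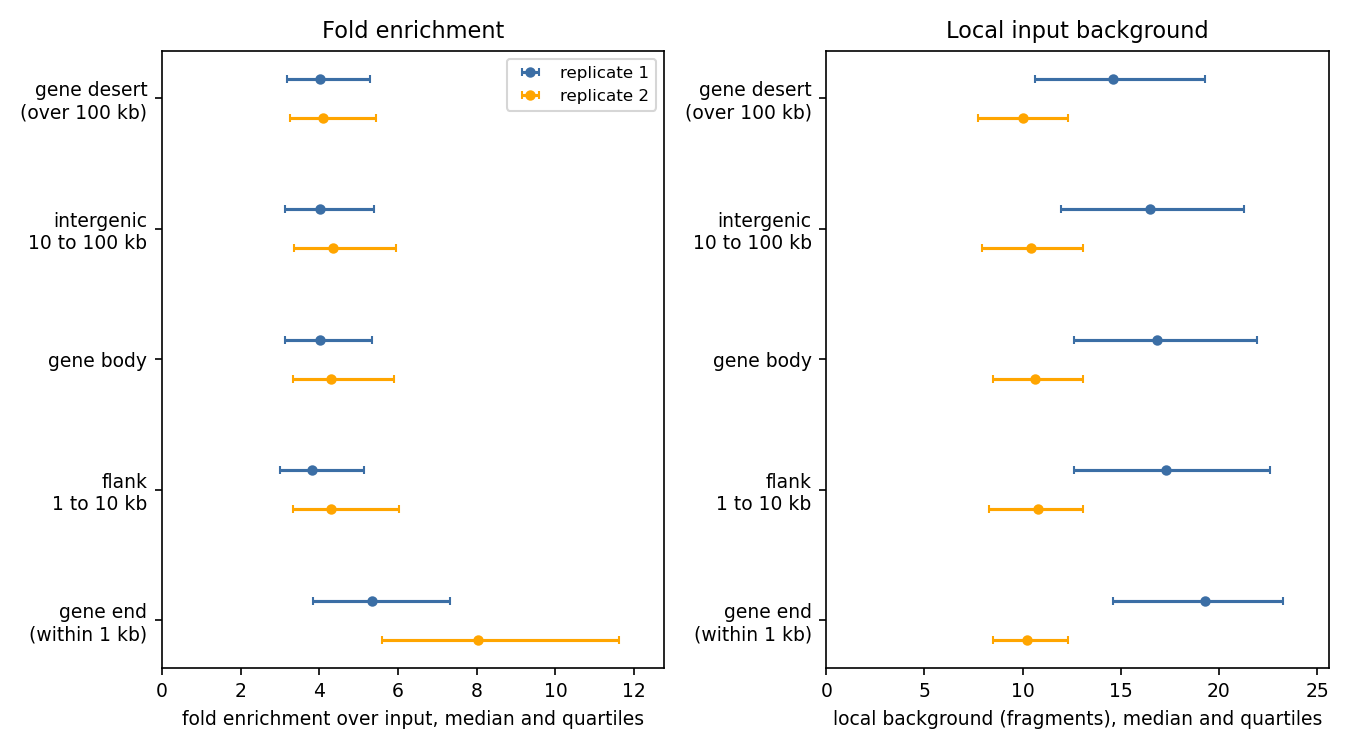
Median (point) and quartiles (bars) over regions of the fold enrichment (left) and of the derived local input background in fragments (right), by location and replicate. Desert regions had the lowest median background in replicate 1, 14.6, while the medians of replicate 2 lay near 10 at each location.

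Desert regions were also short. Their peaks had median lengths of 498 and 522 bp in replicates 1 and 2, against 611 and 697 bp at the other shared regions. Other classes away from gene ends were closer, with 541 and 596 bp at 10 to 100 kb and 561 and 607 bp in gene bodies. Gene ends had 783 and 962 bp. A span of 3 kb or more was found for 9 desert regions, and for 402 of all 32246 shared regions. In 97.9% of desert regions each replicate gave a single peak, against 94.2% of all shared regions. The summits of the 2 replicates stood a median of 49 bp apart in the deserts, within 100 bp in 78.2%. These summit values were near those of all shared regions, 48 bp and 76.9%. Across the 3603 regions the fold enrichments of the replicates had a Spearman correlation of 0.55, against 0.68 across the other shared regions. It was 0.59 at 10 to 100 kb, in gene bodies and at 1 to 10 kb, and 0.77 at gene ends. The regions share libraries, and these figures are descriptions.

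Before the demand for both replicates there were 6279 desert regions. Replicate 1 alone gave 1559 more, with a median fold enrichment of 3.32 and a highest of 8.88, and replicate 2 alone 1117, with a median of 3.20 and a highest of 12.8. Of all desert peaks 70.1% of those of replicate 1 and 76.5% of those of replicate 2 fell in a shared region. At gene ends the shares were 96.6% and 85.9%. Sharing rose with strength: in replicate 1 it went from 57.1% of desert peaks under a fold enrichment of 3 to 98.0% at 7 and over, and in replicate 2 from 59.1% to 99.3%. In each band of replicate 1 the desert share was under those of peaks at 10 to 100 kb, by 0.23 to 8.55 percentage points, and in gene bodies, by 0.95 to 9.97. In replicate 2 it was not under the share at 10 to 100 kb in any band. Gene-end peaks of replicate 1 were shared more often than desert peaks in each band. Those of replicate 2 were shared less often than desert peaks in each band under a fold enrichment of 7. There the gene-end share was 41.5% under 3, against 59.1% in deserts, and 93.2% at 5 to 7, against 94.7%. At 7 and over the gene-end share was 99.5%, against 99.3% in deserts. The higher gene-end share of 85.9% in replicate 2 thus covers all strengths together and does not hold at matched strength under 7.

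**Figure D3:**
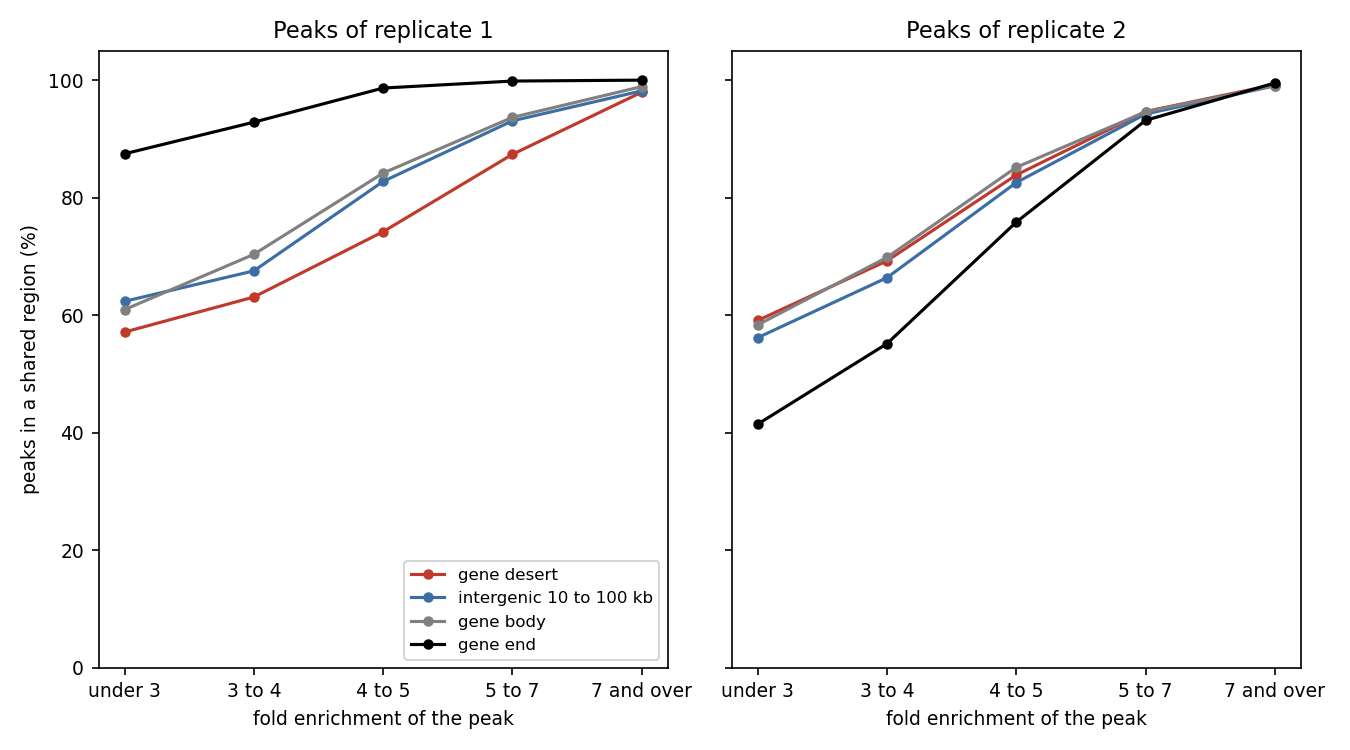
Percentage of peaks that fell in a region shared by both replicates (y), by the peak's own fold enrichment (x), for peaks of replicate 1 (left) and replicate 2 (right) at 4 kinds of location. In replicate 1 the desert line runs from 57.1% to 98.0% below the others, and in replicate 2 it runs from 59.1% to 99.3% beside those of other distal peaks.

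Median fold enrichment changed little with distance from genes within the deserts. The median distance to the nearest coding gene end was 266 kb (quartiles 159 and 489 kb). The 1319 regions at 100 to 200 kb had median fold enrichments of 3.99 and 4.16, the 635 at 500 to 1000 kb 4.01 and 4.09, and the 236 beyond 1000 kb 3.86 and 3.91. At least 5 in both replicates was reached by 18.9%, 18.7% and 14.8% of these. How many regions lay per Mb of desert at each distance was not analysed here. At the limit itself, the nearest region inside lay 100.04 kb from KCNG1 (3.41 and 4.003), and the next 100.07 kb from FARS2 (2.52 and 2.67). Just outside were regions 99.92 kb from LIPC (4.32 and 4.72) and 99.92 kb from CTNNA2 (4.44 and 4.43). The nearest gene end was the start of the gene for 53.4% of 2949 regions whose nearest gene had a strand in the promoter table, and for 54.3% of regions at 10 to 100 kb.

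Of the 5 farthest regions, 4 were below the desert medians in both replicates. One on chromosome Y, inside the pseudogene CTBP2P1, lay 31230 kb from CDY1 and read 2.68 and 2.80. It was the only shared region of any class on that chromosome. A pair on chromosome 22, with OR11H1 as the nearest gene, read 3.10 and 3.56 at 3554 kb and 3.01 and 3.56 at 2971 kb. A region 2484 kb from KCNJ18 on chromosome 17 read 4.97 and 4.27, and one 2366 kb from PCDH7 on chromosome 4 read 2.94 and 3.27. Several of these stretches are known to be repetitive, and the sources used here do not give how reads that map to several places were treated.

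Most desert regions overlapped no annotated gene at all. For 2473 of them, 68.6%, the summit lay in no RefSeq gene of any type, and for 1021, 28.3%, it lay inside one of 644 lncRNA genes. The lncRNA-hosted regions were close in strength to the rest, with medians of 4.03 and 4.13, against 4.01 and 4.09 outside every lncRNA span. A transcribed pseudogene held 55, another pseudogene 16, and immunoglobulin or T cell receptor loci 42. The lncRNA gene with the most was MEF2C-AS1 with 15, antisense to a regulator of B cell and muscle development, followed by OBI1-AS1 with 9. FIRRE, an X-linked lncRNA known for its role in nuclear organisation, held 8, with fold enrichments of 2.59 to 5.15 in replicate 1 and 2.85 to 4.98 in replicate 2.

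Deserts as defined here covered 984 Mb, 31.9% of the annotated span of the chromosomes, centromeres and unsequenced stretches included. Chromosome Y made up 47.7 Mb of this. The deserts held 3.66 regions per Mb, against 13.6 shared regions per Mb elsewhere. Among chromosomes the density ran from 0.021 per Mb on Y and 1.31 on chromosome 22 to 5.75 on chromosome 12. Desert regions were 19.4% of all shared regions on chromosome 4, the highest share except for Y with its single region, and 1.57% on the gene-dense chromosome 19.

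Density differed between lists of genes when each desert stretch was given to its nearest coding gene. The 89 regions nearest to genes of plasma cell and myeloma biology lay in 4.82 Mb of desert, a density of 18.5 per Mb, and the 36 nearest to B cell genes in 3.22 Mb, a density of 11.2 per Mb. Developmental transcription factors had 133 regions at 4.43 per Mb, and genes of neural adhesion and synapses 311 at 3.65 per Mb, close to the 3.66 of all deserts. Interferon and interferon-stimulated genes had 3 regions in 1.20 Mb, 2.50 per Mb. With each gene left out in turn the plasma cell density stayed between 17.2 and 21.7 and the B cell density between 8.65 and 13.0. The 3.66 of all deserts counts centromeres, unsequenced stretches and chromosome Y as well. Some list deserts, such as 0.094 Mb at CCND2 and 0.097 Mb at ITGA4, are short stretches just past the 100 kb limit. Distance from genes was not matched between lists and all deserts. The lists were drawn up with earlier results of these data known, and the densities were added after the counts had been seen, so they are no independent evidence.

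**Figure D4:**
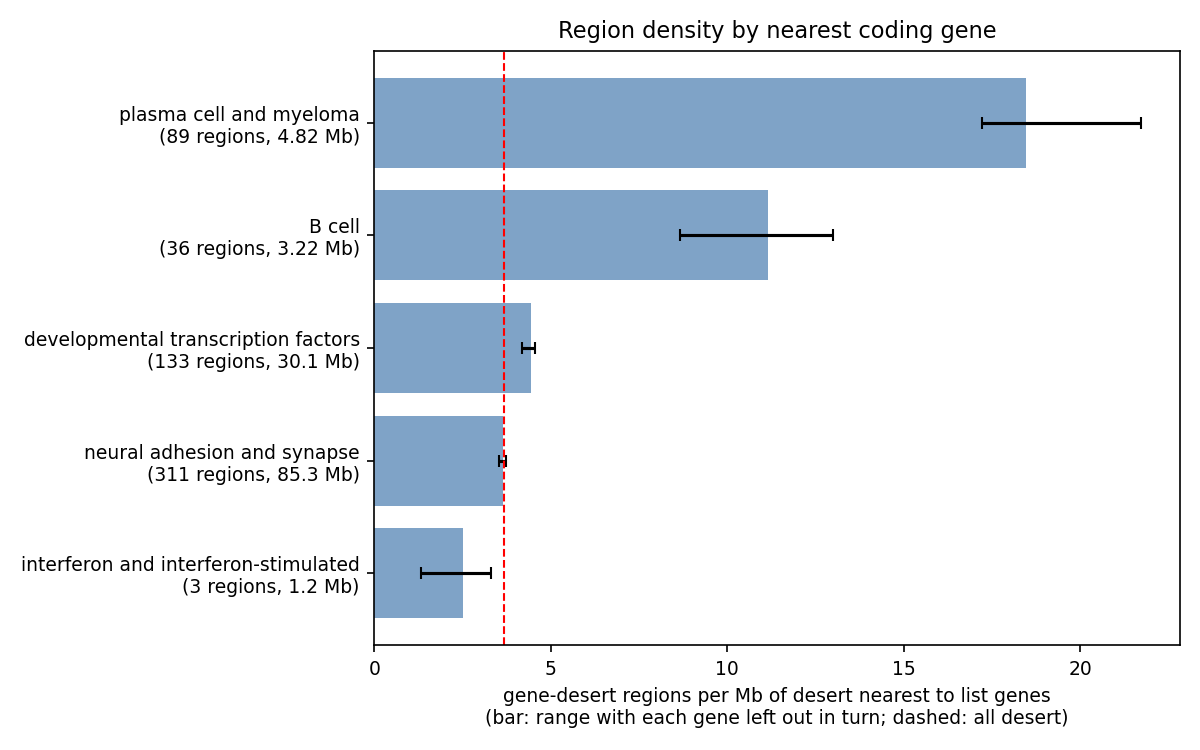
Gene-desert regions per Mb of desert (x) for stretches nearest to the genes of 5 lists, with the range when each gene was left out in turn (bar) and the density of all deserts (dashed line, 3.66). Plasma cell and myeloma genes stand at 18.5 per Mb and B cell genes at 11.2, while neural adhesion genes stand at 3.65. The density of all deserts includes centromeres, unsequenced stretches and chromosome Y, and distance from genes was not matched.

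Of the 15 plasma cell and myeloma genes with any desert around them 13 had a region, and 12 exceeded the density of all deserts. Among neural adhesion genes 68 of 86 had a region and 38 exceeded that density. For developmental transcription factors the counts were 45 of 69 and 29, for B cell genes 9 of 13 and 8, and for interferon genes 2 of 9 and 2. Having a region was thus not particular to the plasma cell list. CCND2, a D-type cyclin that myelomas often overexpress, had 6 regions in 0.094 Mb, with fold enrichments of 2.63 to 7.67 in replicate 1 and 3.80 to 6.38 in replicate 2. ITGA4, the alpha chain of the integrin VLA-4 that holds plasma cells in bone marrow, had 6 (1.81 to 6.32 and 2.61 to 7.38), all inside the lncRNA LINC01934. PRDM1, the gene of the plasma cell repressor BLIMP-1, had 6 (1.99 to 4.71 and 3.09 to 6.24). The strength of the list's regions was ordinary, with medians of 4.01 and 4.49. Of its 89 regions 26 lay on chromosome 8, and without that chromosome 13 genes gave 17.2 per Mb.

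CXCR4, the chemokine receptor for homing to bone marrow, had 6 regions in 0.224 Mb. The strongest, chr2:136326959-136327668 at 209 kb from the gene, read 7.005 and 9.42, and the next, chr2:136381297-136383555, read 6.32 and 8.21. KLF6, a zinc finger transcription factor, had 6 (3.66 to 7.68 and 3.70 to 7.17). DUSP6, a phosphatase that acts on ERK, had 5, among them chr12:89039906-89040755 with 9.06 and 9.36. MAF had 4 (3.22 to 5.01 and 2.54 to 5.79), 167 to 276 kb away, and RUNX2 3. CCND1 and TENT5C, with 0.066 and 0.017 Mb of desert, had none.

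In the deserts of B cell genes ID2 had the most regions. ID2, an inhibitor of E proteins that restrains B cell development, had 14 in 0.682 Mb, with fold enrichments of 3.08 to 9.80 in replicate 1 and 4.29 to 12.1 in replicate 2. Its best by the worse of the replicate ranks lay at chr2:8301808-8302942 inside LINC00299, 380 kb from the gene, and read 8.06 and 12.1. A neighbour at chr2:8303411-8304032 read 9.80 and 8.50, and one at chr2:8542977-8544226 read 9.33 and 9.86. EBF1, a B cell commitment factor that plasma cells lack, had 7 (2.83 to 6.86 and 2.72 to 6.28). CD83 had 5, the best ranked reading 5.66 and 6.53, while BACH2, BCL11A, IKZF2 and IRF8 had none in deserts of 0.001 to 0.178 Mb.

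Of the 3 regions of interferon genes, 2 were above the desert medians in both replicates. One lay at chr12:67988307-67991727, 164 kb from IFNG, the type II interferon gene, inside the lncRNA IFNG-AS1 and over one of its annotated starts, and read 7.06 and 9.30. The other 2 were 495 and 488 kb from CMPK2, an interferon-stimulated kinase, and read 8.17 and 7.37, and 3.23 and 4.41. Of the 67 interferon genes 9 had any desert around them, and 7 of those, IL6 and IL15 among them, had no region. By count, interferon genes were nearest to 0.0833% of desert regions and to 0.632% of regions at 10 to 100 kb.

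Regions beside developmental and neural genes included strong ones without a high density. A region 971 kb from BCL11B, a T cell and neuronal transcription factor, read 12.6 and 10.2. Regions near SOX11 (8.93 and 9.97) and NR2F2 (6.76 and 9.44) followed. Among adhesion genes, CNTN3 had a region with 10.7 and 13.9 at 487 kb and CDH9 one with 11.6 and 13.3 at 427 kb. PCDH20 (9.44 and 8.99) and CNTNAP5 (6.59 and 10.3) followed in that list by the worse of the replicate ranks. Long deserts flank many such genes. Neural adhesion genes were nearest to 8.63% of desert regions and 1.05% of those at 10 to 100 kb. Developmental transcription factors were nearest to 3.69% and 0.968%.

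The desert regions lay in 894 intervals between neighbouring coding genes, of which 270 held 1 region each and 75 held 10 or more. Those 75 contained 1048 regions, 29.1%. The most, 24, lay between ZEB2 and ACVR2A over 3.32 Mb, followed by 23 between TENM4 and FAM181B over 3.29 Mb. Another 22 lay between C4orf33 and PCDH10 over 4.03 Mb, and 22 between SOX2 and ATP11B over 1.08 Mb, which made the latter the densest of these at 20.4 per Mb. Interval densities are over the whole interval, including the 100 kb beside each gene where no desert region can lie. They do not compare with densities per Mb of desert. Between MEF2C and CETN3 there were 21 over 1.49 Mb, 19 of them in lncRNA spans. The best of these by the worse of the replicate ranks, at chr5:89343423-89344224 in MEF2C-AS1, read 7.45 and 9.58. Number and length of interval had a Spearman correlation of 0.55 over the 894 intervals, which were kept only if they held a region.

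Among intervals with at least 8 regions some short ones were densely filled, again per Mb of the whole interval and not of desert alone. The T cell receptor beta locus, between PRSS58 and PRSS1, had 26.5 per Mb, with medians of 3.22 and 3.21 and ranges of 1.87 to 5.99 and 1.93 to 6.53. The interval between OLIG3 and TNFAIP3, the gene of the NF-kappaB inhibitor A20, had 9 regions at 24.2 per Mb (medians 3.13 and 3.40). Beside NR3C1, the glucocorticoid receptor gene, 8 regions gave 21.2 per Mb (4.17 and 4.59), and beside BTG1, an antiproliferative gene mutated in B cell lymphoma, 11 gave 19.7 per Mb (4.49 and 4.48). The interval next to JUN, a subunit of AP-1, held 10 at 19.5 per Mb (4.19 and 3.72). The intervals named so far were picked from a longer list. It also held RAMP3 to ADCY1, with 9 at 23.1 per Mb (3.52 and 4.05). Between SLC38A2 and SLC38A4 there were 8 at 20.4 per Mb (4.15 and 5.13).

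Close spacing was less common in deserts than in other distal classes. Another desert region lay within 12500 bp, a distance often used to stitch enhancers, for 1130 regions, 31.4%, against 42.4% for regions at 10 to 100 kb with their own kind and 45.6% in gene bodies. Single regions numbered 2473, pairs 362, groups of 3 69, of 4 34, of 5 9 and of 6 3. Regions with a neighbour had medians of 3.9995 and 4.24 and 22.7% reached 5 in both replicates, while regions alone had 4.02 and 4.04 and 16.6%. A group of 6 lay within 42.1 kb beside NR3C1 (3.24 to 7.02 and 3.33 to 6.60), and another within 25.2 kb between AKIRIN2 and SPACA1 (2.96 to 6.44 and 3.03 to 6.70). A group of 5 stood within 22.6 kb upstream in coordinate order of CCND2.

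The strongest desert region of both replicates lay at a small nuclear RNA gene. At chr1:143728793-143729896, over RNVU1-18, a variant of the U1 RNA of the spliceosome, it read 30.9 and 57.9 and ranked 21 among all shared regions. It stood 6.55 kb from the nearest lncRNA end and 173 kb from H3-7. A region at chr1:148262957-148264254 near NBPF11 had one of the 3 highest values of replicate 1 with 19.2 but read 10.2 in replicate 2. Both lie in a part of chromosome 1 known for near-identical copies, so their reads could be split with or borrowed from other copies, and their values are uncertain.

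By the worse of the replicate ranks, the next region lay in the lambda light chain locus. At chr22:22756115-22759208, over the variable segment IGLV2-14, the region read 17.6 and 26.3, while the other region in the locus read 3.08 and 2.81. In the heavy chain locus 17 regions had medians of 5.41 and 5.26, above those of all desert regions in both replicates, and in the kappa locus 6 had 3.59 and 2.92. The T cell receptor loci held 13 (beta) and 4 (alpha). These loci count as deserts because RefSeq does not class their segments as protein-coding genes.

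Heavy chain regions fell into several stretches. A group of 5 within 21.7 kb lay 5.5 to 26.7 kb downstream of IGHA1, where a 3' regulatory region of the locus is known, and read 4.87 to 7.59 in replicate 1 and 4.51 to 6.55 in replicate 2. Between IGHM and the joining segments, where the intronic enhancer is known to lie, chr14:105857750-105860781 over the hairpins of miR-4507, miR-4538 and miR-4537 read 11.5 and 8.92, and the adjoining chr14:105860788-105863345 over IGHJ6 read 10.2 and 9.40. Beside IGHG1, the gene of a constant region, a pair read 4.05 and 5.07, and 5.54 and 3.20. Among the variable segments IGHV3-30 had the strongest, chr14:106335048-106335569, with 11.9 and 17.3 from a pileup of 74 and 91 fragments over a background of 5.32 and 4.32. The other 7 read 3.44 to 5.86 and 3.26 to 8.83. Variable segments resemble one another, and read placement among them is uncertain. The reference order of segments also need not hold in a plasma cell line, whose heavy chain locus is rearranged.

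The region over MIR148A had one of the 3 highest values in replicate 2. MIR148A encodes a microRNA known to be abundant in plasma cells and to promote their differentiation. The region, chr7:25949227-25952183, read 8.88 in replicate 1 and 19.6 in replicate 2, with its summit 1613 bp from the hairpin inside the lncRNA LOC105375199. Between the coding genes NPVF and NFE2L3 there were 14 desert regions, 5 of them within 21.96 kb around the hairpin. Those 14 read 2.56 to 8.88 and 2.55 to 19.6, and the next by the worse of the replicate ranks, chr7:25967022-25969502, read 7.80 and 8.85. The region over the hairpin of miR-4437, inside LINC01934 in the interval beside ITGA4, read 6.32 and 7.38.

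**Figure D5:**
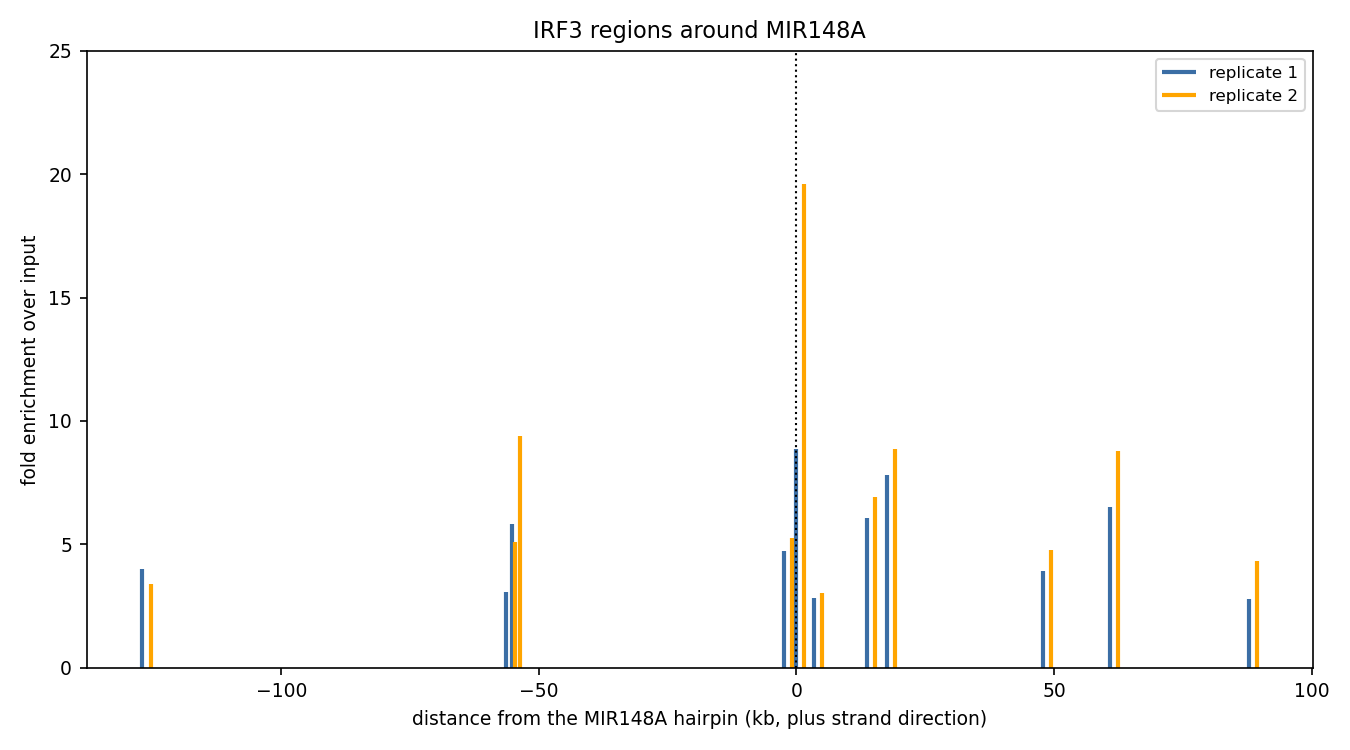
Fold enrichment over input (y) in replicate 1 (blue) and replicate 2 (orange) at desert regions from 150 kb before to 90 kb after the MIR148A hairpin, placed by distance with the replicates set slightly apart (x, kb; dotted line at the hairpin). The region over the hairpin reached 8.88 and 19.6, and no other in the window passed 10 in either replicate.

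The remaining regions of the 10 best ranked lay at lncRNA genes or in open desert. One in OBI1-AS1, between EDNRB and POU4F1, read 12.1 and 18.8 (chr13:78102080-78102950), and one in HEY2-AS1 read 11.3 and 17.3, 152 kb from HEY2, a Notch target. Regions between RPS24 and ZMIZ1 (10.7 and 17.7) and between C1orf174 and AJAP1 (10.6 and 18.4) also lay in lncRNA spans. The last of these rested on a pileup of 59 and 97 fragments over a background of 4.65 and 4.32, near the genome-wide level, and the one at RPS24 on 230 and 232 over 20.6 and 12.2. Outside such spans stood a region 493 kb from TAFA5 with 19.8 and 15.5, one 196 kb from BCOR, a Polycomb-linked corepressor gene, with 10.7 and 15.4, and one between GPD2 and GALNT5 with 13.3 and 15.1. Of these, only the region at TAFA5 was higher in replicate 1.

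Some regions differed strongly between the libraries. The largest gap toward replicate 2 was 160 kb from RUNX2, the gene of a master transcription factor of osteoblasts, with 3.80 in replicate 1 and 12.8 in replicate 2, a log2 ratio of 1.75. Regions near OTOL1 (3.08 and 9.74), ADGRL4 (2.32 and 7.29), MKLN1 (4.21 and 12.02) and GOLIM4 (3.12 and 8.60) followed. The largest gap the other way was 312 kb from CTNNA2, with 7.99 and 2.71, a log2 ratio of -1.56. Those near LY86 (7.55 and 2.62), PCDH9 (7.86 and 2.82), SYNDIG1 (9.65 and 3.59) and SPON1 (6.91 and 2.64) came next. At the RUNX2 region the derived background was 27.9 in replicate 1 and 11.6 in replicate 2, and at the CTNNA2 region 8.64 and 11.6, and their part in the gaps was not tested. With 1 library on each side these gaps have no replicate check.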

How the data were processed

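The data were 2 IRF3 ChIP-seq libraries of MM1.S cells, each with a peak list, and 2 input libraries that entered only through the peak calls. Per the file headers, MACS2 2.1.2 was run by the authors on each ChIP library against an input, with a q-value cutoff of 0.05, while the submitters' processing notes name the build GRCh38, deepTools 3.3.1, SAMtools 1.2, Picard 2.6.0, BWA 0.7.15 and MACS2 2.1.1. The role of each tool, and how duplicate or multiply mapped reads were treated before calling, are not given in the sources used here. The deposited pileup is a signal, the number of stacked fragments at a summit. The deposited fold enrichment is a ratio of that pileup to the local input background. The deposited −log10 p and −log10 q had column names damaged by a spreadsheet and were told apart by column order, the former being above the latter at each peak.

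Peaks overlapping by at least 1 bp were merged with Python 3.11.15, pandas 2.3.3 and numpy 2.4.6, a region took the strongest peak of each replicate, and genes came from a RefSeq table of GRCh38.p14. The local background was derived as (pileup + 1) / fold enrichment - 1, and its lowest values, 3.81 and 4.32 fragments, equalled the genome-wide level that tags, fragment lengths of 267 and 251 bp and the effective genome size of 2.70e+09 bp give. Intervals are exact binomial (Clopper-Pearson, scipy 1.17.1) at the 95% level, cover counting error only and treat regions as independent, which neighbouring regions are not. With 1 group of 2 libraries no test between conditions was possible, and none was run. Merging and counting were tested on simulated data.

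Regions were named by rule: the 10 with the best worse-of-2 rank, the 3 highest of each replicate, the 5 fullest intervals, the 5 farthest from genes, the 5 with the largest ratio between replicates in each direction, the 2 nearest the limit on each side, and up to 4 per gene list. The members and lists were chosen with earlier results of these data known. Dense intervals, close groups, heavy chain segments, genes with counts only, lncRNA hosts, microRNAs, promoters and list densities were chosen after values were seen. Regions on chromosome 8 were counted but not described singly. One item that the rule named is not reported here. No genome sequence was used here, so motifs around summits were not analysed here, and only RefSeq promoter windows were searched. The alternatives changed the distance limits, overlap, q-value, fold enrichment and neighbour distance, left out each replicate and left out antigen receptor loci.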

Additional observations from a re-analysis of the deposited data

How the results depend on the processing

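Of 57 recomputed values 36 stayed within the spread used for comparison, 21 moved and none reversed. The 3603 desert regions became 2284 beyond 200 kb and 667 where both replicates reached a fold enrichment of 5. With each replicate left out in turn, the number was 4753 to 5211. The median fold enrichment of replicate 1 was 4.27 at −log10 q of at least 5, 6.62 at a fold enrichment of at least 5 in both and 3.74 without replicate 2. That of replicate 2 was 4.43, 6.81 and, without replicate 1, 3.78. These follow from asking for more strength, or from admitting peaks of 1 list. The share among the strongest 20% was 44.1% at a fold enrichment of at least 5, and 7.09% to 13.3% with a replicate left out. The median log2 ratio was 0.0772 at −log10 q of at least 5. The share with a neighbour within 12500 bp was 33.4% beyond 50 kb, 28.2% beyond 200 kb, 28.5% at −log10 q of at least 5, 12.6% at a fold enrichment of at least 5, 29.2% beyond 10 kb from lncRNA ends, 29.8% outside all gene spans, 36.2% to 38.0% with a replicate left out and 54.9% within 50 kb, and these settings change how many regions can be neighbours. Leaving out antigen receptor loci, an alternative chosen after seeing the data, moved none of the values.

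No paired analysis was possible because the series has 1 group with values of its own, and the inputs enter only through the peak calls. Desert regions rested on a median of 59 and 42 fragments in replicates 1 and 2, and precision near the calling limit was not measured. Gene ends in replicate 2 gained more than deserts, so an order of locations by strength holds within a library. Regions in repeated sequence, on chromosome Y or at antigen receptor segments depend on read placement, which was not tested.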
